A study of Arabidopsis thaliana with 4 samples.

Results

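The genes described here carry the nuclear auxin signal of Arabidopsis thaliana: 29 Aux/IAA genes, 15 auxin response factor (ARF) genes and the 6 receptor genes TIR1 and AFB1 to AFB5. They were chosen by locus and make up 50 of 27444 nuclear protein-coding genes. All 50 were found in the gene table under the expected symbol or a synonym. A peak was placed at a gene when it overlapped the gene body or the 1 kb on either side. The ARF set leaves out the other ARF genes of the genome.

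Auxin joins a TIR1/AFB F-box receptor to an Aux/IAA protein, which is then ubiquitinated by the SCF complex and degraded. Aux/IAA proteins hold ARF transcription factors in check together with the TOPLESS corepressors, so their loss frees the ARFs at auxin-responsive genes. Many Aux/IAA genes are themselves induced by auxin. APOLO is an auxin-responsive long noncoding RNA known for contacting other loci by forming RNA-DNA duplexes, and the study asked which loci across the genome it associates with.

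The study used chromatin isolation by RNA purification and sequencing (ChIRP-seq), in which biotinylated oligonucleotides pull down an RNA with the crosslinked DNA around it. All 4 libraries came from Col-0 plants that overexpressed the full-length APOLO region from the 35S promoter, which is active in most tissues, and the control library shared this transgene. The plants were kept on solid MS medium in long days. The labels give neither tissue, age nor the number of transgenic lines. The ODD set of APOLO probes was used for 2 libraries (ODD 1 and ODD 2), the EVEN set for 1 (EVEN 1) and control probes against LacZ for 1 (LACZ 1).

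Nuclear peaks numbered 16126 in ODD 1, 58146 in ODD 2, 20470 in EVEN 1 and 12546 in LACZ 1. Read totals are not used here, and depth is seen only through the pileup at peak summits, the number of stacked fragments, and the local background that pileup and fold imply. The median pileup was 11 in ODD 1, 30 in ODD 2, 14 in EVEN 1 and 24 in LACZ 1, and the lowest local background was 1.11, 6.55, 2.81 and 6.23 fragments in the same order. The APOLO locus itself had a peak in each APOLO-probe list, with folds of 16.6, 12.4 and 14.1 in ODD 1, ODD 2 and EVEN 1, and none in LACZ 1. A fold is the authors' enrichment of the summit pileup over the local background used in calling, whose source is not given, so folds are ranked within a list and not compared in size between lists. EVEN and LACZ had a single library each, a list holds no value where no peak was called, and no test across libraries was run. Positions are those of the authors' lists, on TAIR10. Intervals are exact 95% binomial (Clopper-Pearson) intervals and cover counting error only.

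Auxin signalling genes often had a peak in the APOLO-probe lists, and many had one with the control probes. In ODD 1, 36 of the 50 genes had a peak, or 72.0% (57.5 to 83.8), against 48.9% of all protein-coding genes. In EVEN 1, 34 had a peak, or 68.0% (53.3 to 80.5), against 55.3%. The control LACZ 1 had a peak at 25 genes, or 50% (35.5 to 64.5), against 41.3%. ODD 2 had a peak at 49 genes, but 92.8% of all protein-coding genes had one in that long list, so its count says little about these genes.

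The families differ in gene length, and long genes collect more peaks. ARF genes had a median length of 4530 bp, TIR1/AFB genes one of 2950 bp and Aux/IAA genes one of 1740 bp. At the shares seen among coding genes in the same 8 classes of length, 26.7 of the 50 genes would have an ODD 1 peak, 29.3 an EVEN 1 peak and 22.3 a LACZ 1 peak. The observed 36, 34 and 25 were each above these values. The intervals given above for EVEN 1 and LACZ 1 took in the like-length shares of 58.5% and 44.7%, and that for ODD 1 lay above its 53.4%. With all lists cut to the length of the shortest, ODD 1 had a peak at 32 genes (41.1% of coding genes), ODD 2 at 33 (44.7%), EVEN 1 at 27 (38.8%) and LACZ 1 at 25 (41.3%). The like-length values were 22.4, 24.4, 20.6 and 22.3 genes in the same order. Among peaks with a −log10 q of at least 5, the counts were 21 in ODD 1 (28.8% of coding genes), 46 in ODD 2 (84.9%), 8 in EVEN 1 (12.0%) and 8 in LACZ 1 (16.7%). Here the like-length values were 15.7, 44.3, 6.38 and 8.92 genes, so LACZ 1 fell below its value. At this stricter q the interval of the ODD 1 share, 42.0% (28.2 to 56.8), took in its like-length share of 31.5%.

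The 3 families differed most in the control list. Of the 15 ARF genes, 14 had a LACZ 1 peak (93.3%, 68.1 to 99.8), where 7.98 would at the shares of coding genes of like length. Of the 29 Aux/IAA genes, 8 had one (27.6%, 12.7 to 47.2), where 11.5 would. That interval took in the like-length share of 39.7%. Of the TIR1/AFB genes, 3 of 6 had a LACZ 1 peak. Per 10 kb of gene and flank, LACZ 1 had 1.98 peaks at ARF genes, 0.714 at Aux/IAA genes and 1.35 at TIR1/AFB genes, against 1.13 over all coding genes. The families lay closer together in the APOLO-probe lists, most of all in ODD 1 and EVEN 1. ODD 1 had 2.41 peaks per 10 kb at Aux/IAA, 2.08 at ARF and 2.36 at TIR1/AFB genes, against 1.51 over all coding genes, and EVEN 1 had 2.23, 2.18 and 2.36, against 1.94. In ODD 2 the values were 5.8, 6.55 and 8.42, against 5.45. The LACZ 1 peaks at ARF genes were mostly weak, since 3 ARF genes had one with a −log10 q of at least 5, where 3.15 would at the shares of coding genes of like length.

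**Figure D1:**
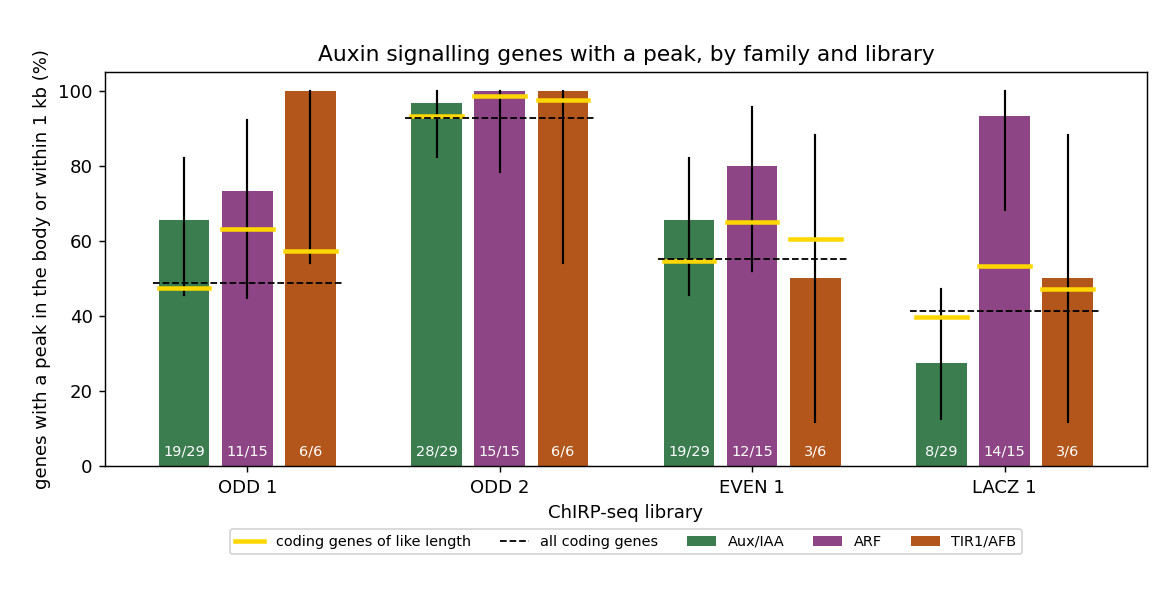
Share of genes with a peak in the gene body or within 1 kb, in percent, by family (bar colour) and library (bar group), with exact 95% intervals as black lines and the numbers of genes in white. The dashed line is the share of all coding genes and the yellow line that of coding genes of like length. In LACZ 1, ARF genes stand above both lines at 14 of 15 genes. Aux/IAA genes stand below both lines there at 8 of 29, with an interval that takes in both.

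Classes within the families gave small counts. Of the 6 Aux/IAA genes classed as non-canonical (IAA20 and IAA30 to IAA34), whose proteins lack a full degron, 4 had an ODD 1 peak, 5 an EVEN 1 peak and 0 a LACZ 1 peak, where 2.62, 3.09 and 2.2 would at the shares of coding genes of like length. The upper limit of the share for 0 of 6 genes is 45.9%. Of the 23 canonical genes, 15 had an ODD 1 peak, 14 an EVEN 1 peak and 8 a LACZ 1 peak, where 11.2, 12.8 and 9.32 would. Among ARF genes, an ODD 1 peak lay at 4 of 5 activators (ARF5 to ARF8 and ARF19), 5 of 7 repressors and 2 of 3 genes of the class targeted by the microRNA miR160 (ARF10, ARF16 and ARF17), where 3.37, 4.34 and 1.76 would. A LACZ 1 peak lay at 5 of 5, 6 of 7 and 3 of 3 in the same order, where 2.8, 3.69 and 1.49 would.

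A region recovered by both probe sets and not by the control was defined as an ODD 1 peak that overlapped an EVEN 1 peak by at least 1 bp and no LACZ 1 peak. Such a shared region lay at 8 of the 50 genes (16.0%, 7.17 to 29.1), against 11.1% of all coding genes and 5.87 genes at the shares of coding genes of like length. The Aux/IAA family held 6 of them (IAA2, IAA9, IAA26, IAA28, IAA33 and IAA34), the ARF family 2 (ARF3 and ARF6) and the receptor family 0. At the shares of coding genes of like length, 3.13, 1.97 and 0.757 genes would hold one. The interval of the Aux/IAA share, 7.99 to 39.7%, took in its like-length share of 10.8%. IAA28 held a pair of regions, which brings the total to 9. The count depended on the ODD library. With ODD 2 in place of ODD 1 it rose to 18 genes, at a background of 31.9%: 12 Aux/IAA, 5 ARF and 1 TIR1/AFB gene. The like-length values for these families were 9.17, 5.62 and 2.12 genes. The count was 5 with lists of equal length (7.42% of coding genes) and 2, IAA2 and IAA28, with a −log10 q of at least 5 (2.98% of coding genes).

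All 6 receptor genes had an ODD 1 peak and an ODD 2 peak, where 3.44 and 5.85 would at the shares of coding genes of like length. With a −log10 q of at least 5, 2 of the 6 had an ODD 1 peak, where 2.01 would. The 7 ODD 1 peaks at receptor genes were all found again in ODD 2. TIR1 (AT3G62980), the first auxin receptor described, had ODD 1 peaks at chr3:23275264-23275410 with a fold of 6.33 and at chr3:23275597-23275653 with a fold of 5.46. A single ODD 2 peak with a fold of 7.83 covered both. The second of them overlapped a LACZ 1 peak with a fold of 2.87. Both EVEN 1 peaks of TIR1, with folds of 3.33 and 3.6, lay elsewhere in the gene. Both probe sets thus had peaks in TIR1, but in separate stretches of it.

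AFB5 (AT5G49980), the receptor best known for sensing the synthetic auxin picloram, had the highest receptor folds in ODD 1 and ODD 2. Its ODD 1 peak at chr5:20334208-20334415 had a fold of 9.23 and ranked at 8.83% of the list from the highest fold. The ODD 2 peak over it had a fold of 10.6 and a rank of 3.03%. Neither EVEN 1 nor LACZ 1 had a peak at AFB5.

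AFB4 (AT4G24390), the closest relative of AFB5, had peaks in all 4 lists. Its ODD 1 peak at chr4:12615330-12615599 had a fold of 4.86. It met an EVEN 1 peak with a fold of 3.47, an ODD 2 peak with a fold of 6.1 and a LACZ 1 peak with a fold of 5.14. That LACZ 1 peak ranked at 4.98% of its list, the highest rank of any control peak at the 50 genes. A further LACZ 1 peak with a fold of 4.67 had its summit 82 bp outside the gene, in the neighbouring gene AT4G24380.

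The highest fold of each of AFB1 to AFB3 was below that of AFB4, AFB5 and TIR1 in both ODD lists. AFB1 (AT4G03190) had an ODD 1 peak with a fold of 4.37 and 4 ODD 2 peaks, the highest with a fold of 4.34, and none in EVEN 1 or LACZ 1. AFB2 (AT3G26810) had an ODD 1 peak with a fold of 4.26, 4 EVEN 1 peaks with folds of 3.15 to 3.94, of which none overlapped the ODD 1 peak, and a LACZ 1 peak with a fold of 3.87. At AFB3 (AT1G12820) the ODD 1 peak, with a fold of 4.73, had its summit 933 bp outside the gene, inside the neighbouring genes AT1G12810 and AT1G04973. ODD 2 had 6 peaks at AFB3 with a highest fold of 3.98, and EVEN 1 and LACZ 1 had none.

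Among the Aux/IAA repressor genes, IAA2 (AT3G23030) ranked high in each APOLO-probe list. Its region spanned chr3:8181572-8181769 in ODD 1 and chr3:8181551-8181801 in EVEN 1, which contains it. The ODD 1 fold of 10.9 ranked at 4.91% of the list, the EVEN 1 fold of 8.07 at 1.49% and the ODD 2 fold of 13.4 at 0.463%. The summits in ODD 1 and EVEN 1 were 17 bp apart, and the nearest LACZ 1 peak was 2675 bp away. Each APOLO-probe list had a single peak at IAA2, inside the gene body.

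IAA28 (AT5G25890), a repressor of lateral root formation, had a pair of shared regions in its gene body on chromosome 5. The stronger, at chr5:9034560-9034668, had folds of 8.36 in ODD 1, 11.5 in ODD 2 and 5.98 in EVEN 1, with ranks of 12.0%, 1.78% and 3.81%. The other, at chr5:9033463-9033577, had folds of 6.15, 5.83 and 4.2 in the same order. The nearest LACZ 1 peak was 5888 bp from one region and 6985 bp from the other.

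At IAA9 (AT5G65670), 5 ODD 1 peaks lay in the gene body, the most for any of the 50 genes. The shared region at chr5:26256261-26256376 had folds of 4.56 in ODD 1, 7.01 in ODD 2 and 5.39 in EVEN 1. The strongest ODD 1 peak of the gene, at chr5:26253886-26254016 with a fold of 7.91, lay at the other end, where ODD 2 had a fold of 12.3 and EVEN 1 had no peak. A LACZ 1 peak with a fold of 2.76 lay with its summit 49 bp outside the gene, at this second end. IAA26 (AT3G16500), listed in the gene table as PAP1 (phytochrome-associated protein), had its shared region at chr3:5613826-5613953 with folds of 5.67 in ODD 1, 10.6 in ODD 2 and 4.2 in EVEN 1. A LACZ 1 peak with a fold of 2.9 ended 324 bp from it.

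The regions at IAA33 (AT5G57420) and IAA34 (AT1G15050), both non-canonical Aux/IAA genes, rested on an overlap of 1 bp between the ODD 1 and EVEN 1 peaks. At IAA33 the ODD 1 peak had a fold of 3.41 and ranked at 94.4% of its list, the EVEN 1 peak had a fold of 3.32, and an ODD 2 peak with a fold of 4.51 covered the ODD 1 peak. At IAA34 the folds were 3.22 in ODD 1 and 3.12 in EVEN 1, the ODD 1 peak ranked at 97.9%, and no ODD 2 peak overlapped it. The ODD 1 summit of the IAA34 region lay 580 bp outside the gene. Of all 2786 shared regions in the nuclear genome, 72 (2.58%) rested on an overlap under 10 bp, against 2 of the 9 here. With at least 10 bp asked, a setting added after these overlaps had been seen, 6 of the 8 genes kept a region.

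**Figure D2:**
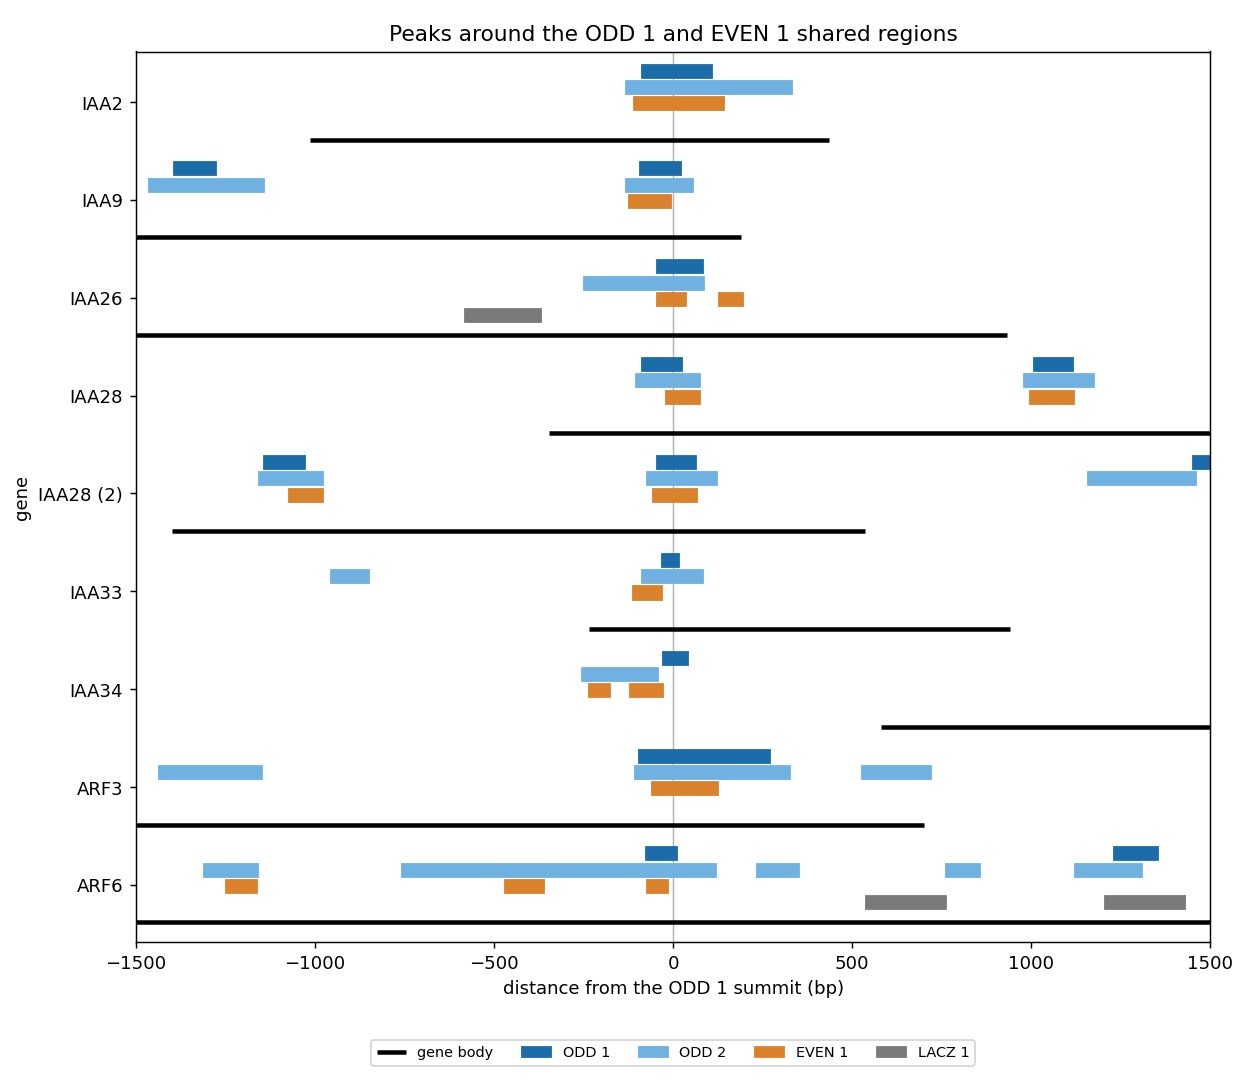
Peaks of the 4 libraries (coloured bars) within 1500 bp of the ODD 1 summit of each shared region, with the gene body as a black line and distance from that summit in bp on the horizontal axis. At IAA2 and in the stronger region of IAA28 (labelled 2) the EVEN 1 peak spans the whole ODD 1 peak, whereas at IAA33 and IAA34 the ODD 1 and EVEN 1 peaks touch by 1 bp.

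The 2 Aux/IAA genes with the highest folds in ODD 1 and ODD 2, IAA18 and IAA27, had no EVEN 1 peak over the site. IAA18 (AT1G51950), whose stabilised form disturbs embryo and root patterning, had the highest ODD 1 fold of the 50 genes, 12.3 at chr1:19306865-19307058, a rank of 2.94%. The ODD 2 peak over it had a fold of 13.7 and a rank of 0.341%. The lone EVEN 1 peak at IAA18, with a fold of 2.89, had its summit 978 bp outside the gene. IAA27 (AT4G29080), or PAP2 in the gene table, had an ODD 1 fold of 11.8 at chr4:14324712-14324964. Its ODD 2 fold of 15.4 was the highest of that list among the 50 genes, with a rank of 0.0628%. EVEN 1 and LACZ 1 had no peak at IAA27. IAA29 (AT4G32280), named here after its values were seen, had overlapping peaks with folds of 8.84 in ODD 1 and 10.9 in ODD 2, and its EVEN 1 peak, with a fold of 3.79, lay in the flank.

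EVEN 1 also had a strong peak of its own. At IAA30 (AT3G62100), named here after its value was seen, the EVEN 1 peak at chr3:22996286-22996406 had a fold of 6.57 and a rank of 2.74%. No ODD 1, ODD 2 or LACZ 1 peak overlapped it. ODD 1 and ODD 2 overlapped each other in the flank of IAA30 instead, with folds of 4.73 and 6.49.

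Control peaks at Aux/IAA genes numbered 8. The highest in LACZ 1, with a fold of 4.94, overlapped the window of IAA5 (AT1G15580) but had its summit 1100 bp outside the gene, in the neighbouring cyclin gene CYCA2;3. IAA5 itself had overlapping peaks in ODD 1 and ODD 2, with folds of 4.29 and 4.64, and none in EVEN 1. IAA8 (AT2G22670), described here with ARF7 after its values were seen, was the one Aux/IAA gene where ODD 1, EVEN 1 and LACZ 1 peaks overlapped, with folds of 4.73, 3.41 and 3.32 and with the control summit outside the window. Over the 50 genes, 3 had an ODD 1 peak shared with both EVEN 1 and LACZ 1 (2.88% of coding genes did): IAA8, AFB4 and ARF7.

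IAA20 (AT2G46990) was the one gene of the 50 with no peak in any list, a state shared by 4.62% of coding genes. IAA1, IAA10 and IAA11 had peaks in ODD 2 alone, with highest folds of 3.71, 2.63 and 2.21 (14.3% of coding genes had a peak in ODD 2 alone). The 14 genes with no ODD 1 peak were 10 Aux/IAA genes (IAA1, IAA3, IAA7, IAA10, IAA11, IAA16, IAA17, IAA19, IAA20 and IAA32) and ARF5, ARF10, ARF11 and ARF18. Absence of a peak means that none passed the authors' threshold at the depth of that library. Across the family, ODD 1 folds ran from 3.22 to 12.3 with a median of 4.81 over 27 peaks, EVEN 1 folds from 2.57 to 8.07 with a median of 3.41 over 25 peaks, and LACZ 1 folds from 2.76 to 4.94 with a median of 3.15 over 8 peaks. Neighbouring pairs such as IAA1 with IAA14 and IAA3 with IAA17 were counted apart: of the 291 peaks at the 50 genes in the 4 lists, 0 lay in the windows of 2 of them.

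**Figure D3:**
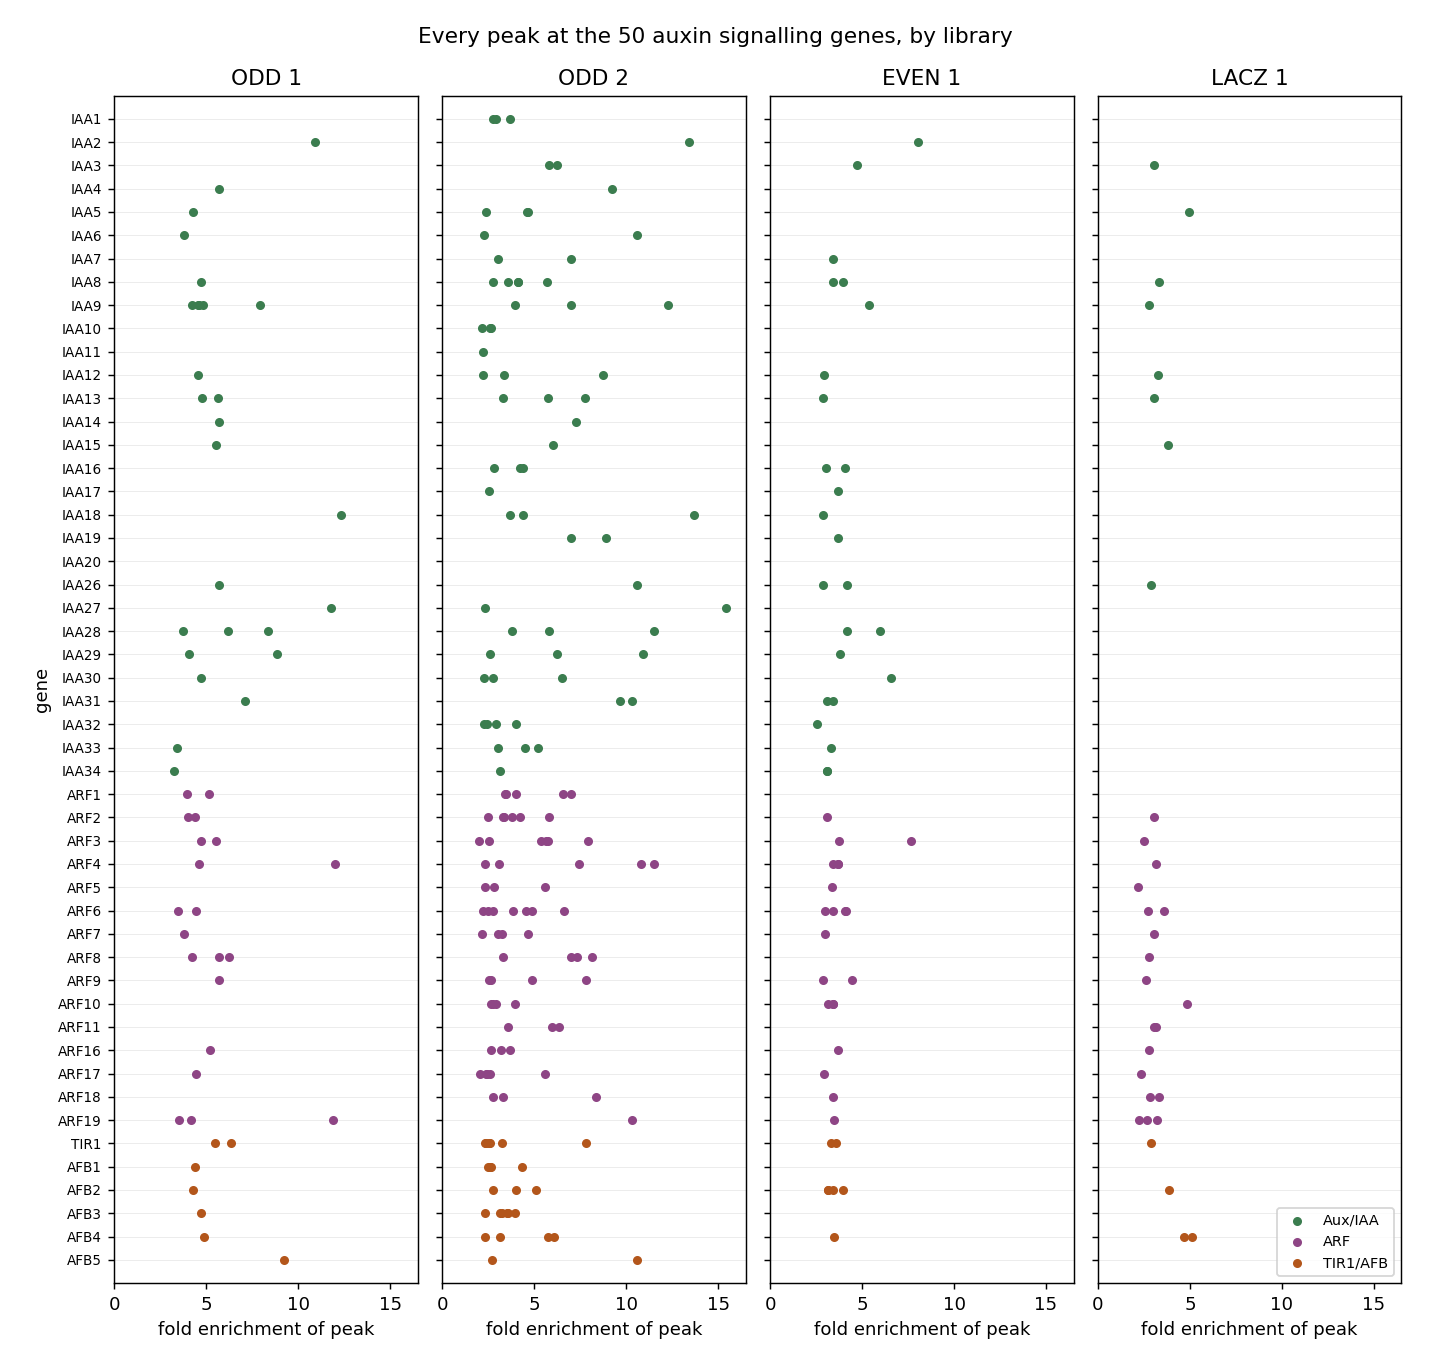
Fold enrichment of every peak (points) at each of the 50 genes (rows), with 1 panel per library and colour by family. ODD 1 reaches 12.3 at IAA18 and ODD 2 reaches 15.4 at IAA27, EVEN 1 reaches 8.07 at IAA2, and LACZ 1 stays at or below 5.14, its value at AFB4; the sizes of folds are not comparable between panels.

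ARF3 (AT2G33860), also called ETTIN and lacking the domain that binds Aux/IAA proteins, had the highest EVEN 1 fold of its family. It spanned chr2:14328184-14328548 in ODD 1 with a fold of 4.69, near the middle of that list at a rank of 57.7%. In EVEN 1 the peak at chr2:14328218-14328404 had a fold of 7.65 and a rank of 1.75%, and the summits were 1 bp apart. The ODD 2 fold was 5.74. A LACZ 1 peak with a fold of 2.5 lay in another part of ARF3, 1706 bp from the region, and overlapped the other EVEN 1 peak of the gene. ARF6 (AT1G30330), a microRNA-regulated activator in flower maturation, had its region at chr1:10687631-10687718 with folds of 3.45 in ODD 1, 3.87 in ODD 2 and 4.07 in EVEN 1. It was among the weakest ODD 1 peaks, at a rank of 93.6%, and the second ODD 1 peak of ARF6 overlapped a LACZ 1 peak with a fold of 2.72.

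ARF4 (AT5G60450), a repressor class ARF regulated with ARF2 and ARF3 by trans-acting small RNAs, had the highest ARF folds in ODD 1 and ODD 2. The ODD 1 peak at chr5:24312640-24312849 had a fold of 12.0 and a rank of 3.31%, and the ODD 2 peak over it had a fold of 11.5 and a rank of 1.81%. Its 3 EVEN 1 peaks, with folds of 3.41 to 3.68, and its LACZ 1 peak, with a fold of 3.18, lay elsewhere in the gene. ARF19 (AT1G19220), an activator of lateral root formation named here after its values were seen, had an ODD 1 fold of 11.9 at chr1:6630108-6630398. Of its 3 LACZ 1 peaks, with folds of 2.24 to 3.2, none overlapped that ODD 1 peak, but 2 overlapped the wider ODD 2 peak, whose fold was 10.3. The other ODD 1 peaks of ARF19, with folds of 4.18 and 3.49, overlapped LACZ 1. ARF7 (AT5G20730), the partner of ARF19 in lateral root formation, had overlapping peaks in ODD 1, EVEN 1 and LACZ 1 with folds of 3.79, 2.99 and 3.07.

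ARF10 (AT2G28350), of the miR160 class, had the strongest control peak of its family, at chr2:12116404-12116794 with a LACZ 1 fold of 4.84 and a rank of 6.29%. ODD 1 had no peak at ARF10. Its 3 EVEN 1 peaks, with folds of 3.15 to 3.41, did not touch the control peak, and each overlapped an ODD 2 peak. ARF1 (AT1G59750) was the one ARF gene with no LACZ 1 peak, and ARF11 (AT2G46530) the one with peaks in ODD 2 and LACZ 1 alone. No ARF gene had peaks in all APOLO-probe lists without a LACZ 1 peak, whereas 8 Aux/IAA genes did (IAA2, IAA18, IAA28 to IAA31, IAA33 and IAA34). Over all coding genes the share was 15.2%. With LACZ 1 left aside, 9 of 15 ARF and 13 of 29 Aux/IAA genes had peaks in all APOLO-probe lists, against 31.3% of coding genes. The 0 for ARF genes thus follows from their LACZ 1 peaks, since ARF1, the one without, had no EVEN 1 peak.

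At these genes nearly every ODD 1 site was found again in the much longer ODD 2 list, and most were not found in EVEN 1. Among 54 sites, 51 were in ODD 2 (94.4%, 84.6 to 98.8), against 94.8% of the whole ODD 1 list. The exceptions were at IAA9, IAA34 and ARF16. An EVEN 1 peak overlapped 12 of the 54 (22.2%, 12.0 to 35.6), against 24.0% of the whole list, and a LACZ 1 peak overlapped 9 (16.7%, 7.92 to 29.3), against 13.4%. A majority, 34 of the 54 peaks (63.0%), were found in ODD 2 and in neither EVEN 1 nor LACZ 1, close to the 65.2% of the whole list. Such an ODD peak lay at 25 of the 50 genes, against 36.6% of all coding genes. The shares of coding genes of like length would give 20.4 genes. The interval of the share for the 50 genes, 35.5 to 64.5%, took in both 36.6% and the like-length share of 40.9%. In the first 10% of the ODD 1 list by fold, 6 peaks lay at these genes (IAA18, ARF4, ARF19, IAA27, IAA2 and AFB5). The peak at IAA2 was the 1 of the 6 that overlapped EVEN 1 (16.7%). Of the 1612 ODD 1 peaks of that rank, 48.4% did so. The difference rests on 6 peaks and was not tested.

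Counted from the EVEN 1 side, 53 peaks lay at the 50 genes. Of these, 30 overlapped ODD 2 (56.6%, 42.3 to 70.2), against 59.5% of the whole EVEN 1 list, and 12 overlapped ODD 1 (22.6%, 12.3 to 36.2), against 19.1%. LACZ 1 overlapped 4 (7.55%, 2.09 to 18.2), against 18.6% of the whole list. By family, 8 of 25 EVEN 1 peaks at Aux/IAA genes overlapped ODD 1, 3 of 21 at ARF genes and 1 of 7 at TIR1/AFB genes. The intervals of these shares overlapped, at 14.9 to 53.5%, 3.05 to 36.3% and 0.361 to 57.9%. These intervals treat each peak as independent, although several peaks can lie at the same gene, as 4 of the 7 did at AFB2.

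**Figure D4:**
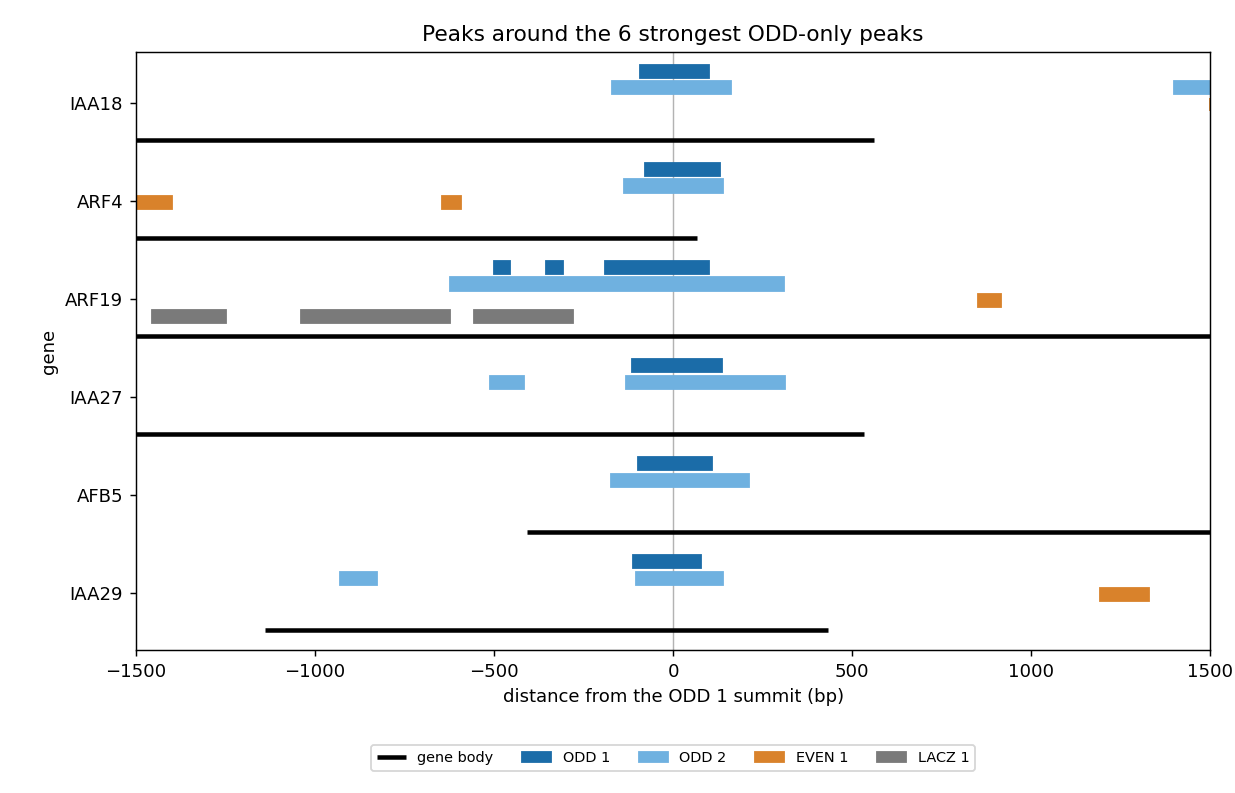
Peaks of the 4 libraries (coloured bars) within 1500 bp of the 6 ODD 1 summits of highest fold that were found in ODD 2 and in neither EVEN 1 nor LACZ 1, with the gene body as a black line and distance in bp on the horizontal axis. An ODD 2 peak covers each summit, and at ARF19 the ODD 2 peak also reaches a LACZ 1 peak.

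Peaks at the auxin signalling genes lay mainly in gene bodies. The gene table holds no strand, so the upstream and downstream flanks were not told apart. Of the ODD 1 summits within a window, 44 of 54 (81.5%) lay in a gene body, as did 44 of 53 in EVEN 1 (83.0%) and 24 of 28 in LACZ 1 (85.7%). Over all coding genes the shares were 64.3%, 70.8% and 69.4%. In ODD 2 it was 72.7% against 65.6%. Per 10 kb, ODD 1 had 3.19 summits in the bodies and 1.00 in the flanks of the 50 genes, against 1.8 and 1.19 over all coding genes. In ODD 1 the flank density was thus near that of other genes, and the body density was higher. EVEN 1 had 3.19 and 0.9, against 2.47 and 1.22, and ODD 2 had 7.9 and 4.1, against 6.63 and 4.15. The control LACZ 1 had 1.74 and 0.4, against 1.41 and 0.742, so the lean to bodies was not particular to the APOLO probes. Summits in ARF genes were in the body in 18 of 20 cases in ODD 1, 19 of 21 in EVEN 1 and 18 of 18 in LACZ 1. Aux/IAA genes, which are shorter, had 20 of 27, 18 of 25 and 4 of 6 there.

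**Figure D5:**
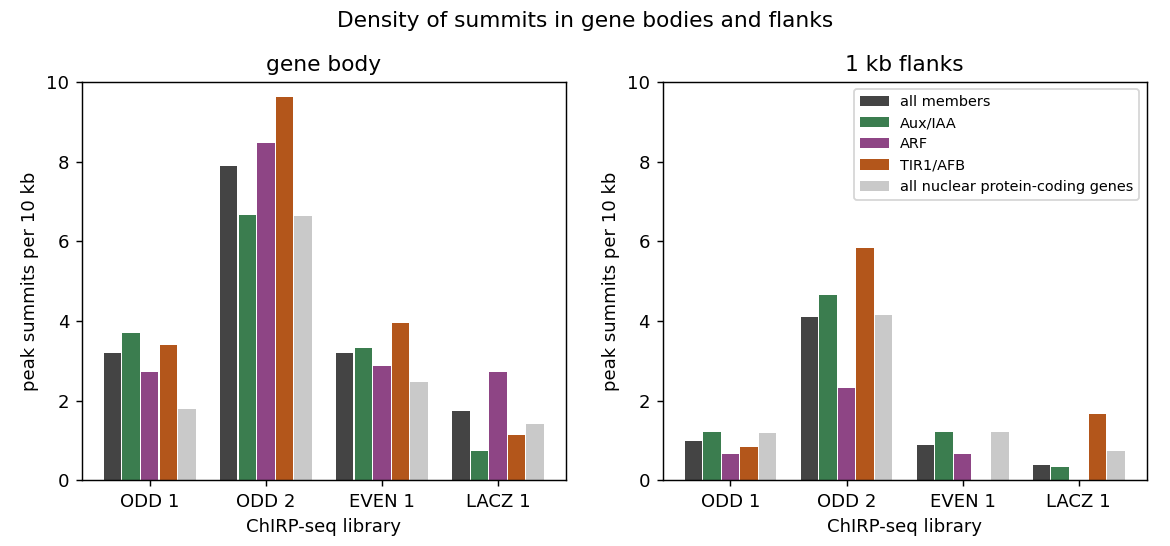
Peak summits per 10 kb of gene body (left) and of the 1 kb flanks (right) by library, for the 50 genes, each family and all nuclear protein-coding genes. In ODD 1 the bodies of the 50 genes hold 3.19 summits per 10 kb against 1.8 over all coding genes, and the flanks 1.00 against 1.19.

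Of 22 other listed genes of the pathway, 14 had an ODD 1 peak (48.9% of all coding genes did), 22 an ODD 2 peak (92.8%), 15 an EVEN 1 peak (55.3%) and 14 a LACZ 1 peak (41.3%), and 4 held a shared region (11.1%). Shares at like length are not given for these 22 genes, so the comparison does not allow for gene length. Among the TOPLESS corepressors, which Aux/IAA proteins recruit, 4 of 5 had an ODD 1 peak and 1 an EVEN 1 peak. A LACZ 1 peak lay at 3 of the 5 corepressor genes and a shared region at 0. Of 7 genes for the SCF core and its RUB pathway, 3 held a shared region: the adaptor gene ASK2 (folds of 18.4 in ODD 1, 12.5 in ODD 2 and 7.09 in EVEN 1), the RING subunit gene RBX1 (6.25 in ODD 1 and 10.9 in ODD 2, with 3.54 and 3.12 at 2 EVEN 1 peaks) and the cochaperone gene SGT1B (5.87, 5.76 and 3.45). A LACZ 1 peak lay at 3 of the 7 SCF and RUB genes, among them RBX1. Of 10 early auxin targets, 4 had an ODD 1 peak and 8 an EVEN 1 peak. GH3.1, which encodes an enzyme of a family that conjugates auxin to amino acids, alone among them held a shared region, at a fold of 7.61 in ODD 1, 9.89 in ODD 2 and 2.78 in EVEN 1. A LACZ 1 peak lay at 8 of these 10 target genes, among them GH3.1. With ODD 2 in place of ODD 1, 12 of the 22 pathway genes held a shared region (31.9% of all coding genes did), 7 of them early targets. ASK2, RBX1 and SGT1B kept one with lists of equal length (7.42%), and ASK2 alone with a −log10 q of at least 5 (2.98%).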

How the data were processed

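Per the submitters' processing notes, reads were handled with CASAVA 1.8.2, Trimmomatic, Bowtie2 and MACS2 on TAIR10. Options and any control used for calling: not given in the sources used here. The authors deposited 1 peak list per library, none pooled. Per the file headers, each peak has a pileup signal at its summit, a p-value and a q-value (as −log10) and a fold enrichment, the ratio of signal to local background. Depth and fragment length affect the number and width of peaks, so lists were compared by overlap (at least 1 bp) on the 5 nuclear chromosomes.

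Genes came from a RefSeq table of TAIR10.1, used without printing its coordinates. Moving the table by up to 3000 bp either way, summits near coding gene edges were fewest with no move in 10 of 10 parts of the genome. Overlap code (Python 3.11.15, pandas 2.3.3, scipy 1.17.1) was checked on made-up intervals. The members and lists were chosen with earlier results of these data known. Genes were described in full if they held a shared region, had the highest fold of their family in a list, or encode a receptor. The planned motif search needs promoter sequence and was not run. Genes are not replicates, and no test was run. Alternatives varied threshold, list length, window, overlap, control distance and ODD library.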

Additional observations from a re-analysis of the deposited data

How the results depend on the processing

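Counts of genes with a peak held within 1.5 times in each of the 4 libraries under every alternative but one: with a −log10 q of at least 5 they fell to 21 in ODD 1, 8 in EVEN 1 and 8 in LACZ 1. That setting also left 2 genes with a shared region, 2 Aux/IAA and 0 ARF. Lists of equal length left 5, of which 1 was an ARF gene. Leaving out an ODD library gave 8 to 18 genes, with 6 to 12 Aux/IAA, 2 to 5 ARF and 0 to 1 TIR1/AFB genes. All 8 genes also had a region with ODD 2 in place of ODD 1, but at IAA34 it was a separate peak that did not overlap the ODD 1 peak. Of the whole ODD 1 list, 94.8% of peaks overlapped the much longer ODD 2 list, so most regions would be kept. Leaving out ODD 2 could change nothing, since the rule does not use it. Over the other 11 alternatives, IAA2 and IAA28 kept a region in 11, ARF3 and IAA9 in 10, ARF6 and IAA26 in 9, IAA33 in 7 and IAA34 in 5. Of 72 family counts by library under alternatives, 11 moved by over 1.5 times, all downward, 8 of them with the stricter q. The cause was not tested. No paired analysis was possible because ODD, EVEN and LACZ share a single replicate number. EVEN 1 and LACZ 1 have no second library, and a missing peak at low depth does not show that a region was not recovered.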
